A study of Mus musculus with 6 samples.

Results

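Endoplasmic reticulum (ER) chaperones and factors of the unfolded protein response were examined in embryonic stem (ES) cells of the mouse, either wild type (WT) or Alkbh1 knockout (KO). The members were 10 genes taken by symbol from a table of 23951 genes. They were the chaperones Hspa5 and Hsp90b1, the lectin chaperones Calr and Canx, the disulfide isomerases Pdia3, Pdia4 and Pdia6, the transcription factors Xbp1 and Atf6, and Herpud1, a factor of ER-associated degradation. All 10 were among the 14095 genes that passed the authors' requirement for a test.

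Messenger RNA was sequenced from feeder-free TT2 ES cells of a C57BL6 x CBA background at passage 5. Of 6 libraries, 2 were WT and 4 were KO, the latter from 2 clones with 2 libraries each. The Alkbh1 protein is a dioxygenase, and the labels do not say how its gene was disrupted. The authors' deposited table gives for each genotype 1 pooled value in FPKM (fragments per kilobase of transcript, scaled to depth), so no SD can be given, depth is unknown, and genotype and clone cannot be told apart.

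Proteins that enter the ER are folded there with the help of chaperones, are glycosylated, and receive disulfide bonds from isomerases. When unfolded proteins build up, the membrane sensors IRE1 (Ern1), PERK (Eif2ak3) and ATF6 start the unfolded protein response. IRE1 splices Xbp1 messenger RNA, ATF6 is cut to release a transcription factor, and PERK slows translation while favouring that of ATF4. Spliced XBP1 and cleaved ATF6 then raise the transcription of chaperones and of degradation factors. A gene-level value holds both spliced and unspliced Xbp1 messenger RNA, and it does not report on the cleavage of ATF6.

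In the authors' deposited table, Alkbh1 itself was at 33.9 FPKM (WT) and 18.1 FPKM (KO) (q = 0.0943, not called), and its row spans a region with 4 more genes. All 8 ES cell markers had KO values of at least 39.1 FPKM in the authors' deposited table. Of the 7 that were tested, 5 were called lower and none higher as scaled by the authors, with a median log2 fold change of -0.50, and with equal sums 2 of the 5 would lie below 0 and 3 above. Over all tested genes 28.4% were called lower and 22.4% higher, with a median of -0.06. Against the 200 tested genes nearest in level, 6 of the 7 ES cell markers lay above the local median, with a median difference of 0.32. By the unadjusted p of the authors' test 5 were lower and none higher, and with the test statistic read as a normal score 2 were lower and none higher. The ES cell list summed to 3615 FPKM (WT) and 2478 FPKM (KO), or 68.6% of WT, next to 63.6% for all tested genes. Among 10 markers of extraembryonic endoderm, a secretory cell type, Gata4, Gata6, Sox17 and Afp lay under 1 FPKM in both genotypes in the authors' deposited table, and 2 were called lower and 3 higher of 7 tested. The endoderm list summed to 209 FPKM (WT) and 176 FPKM (KO), mostly from Sparc. Among 7 fibroblast markers, all but Thy1 and Vim lay under 1 FPKM in both genotypes in the authors' deposited table. Thy1 was there at 6.43 FPKM (WT) and 9.39 FPKM (KO). Of 5 tested, 2 (Vim and Acta2) were called lower and 3 (Thy1, Col1a1 and Pdgfrb) higher. The fibroblast list summed to 69.04 FPKM (WT) and 33.1 FPKM (KO), mostly from Vim. The part of these markers in the results below was not tested. In a bulk sample, fewer cells of one kind and less RNA per cell cannot be told apart.

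As scaled by the authors, 4 of the 10 members fell in KO (Pdia3, Herpud1, Hsp90b1 and Hspa5) and none rose, at a deposited q under 0.05. Over all tested genes 50.8% were called, 28.4% lower and 22.4% higher. The member median log2 fold change was -0.32, against -0.06 over all tested genes, and turned to 0.34 when the FPKM of all tested genes was set to the same sum in both genotypes. At an unadjusted p under 0.05 by the authors' test, 6 members were lower and none was higher, where 31.2% of tested genes were lower. The sum of FPKM over tested genes was 981679 (WT) against 624340 (KO), and equal sums would add 0.65 to every log2 fold change. The median of all tested genes would rise by the same 0.65, so the member median lies below it on both scales. With equal sums, Pdia3 alone of the 10 would lie below 0. A log2 value of 0.65 lies between a 1.5-fold and a 2-fold difference. Genes called lower that stay below 0 with equal sums are thus between 5.36% and 19.6% of all tested genes. The 10 members together held 0.201% of the summed FPKM in WT and 0.239% in KO.

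**Figure D1:**
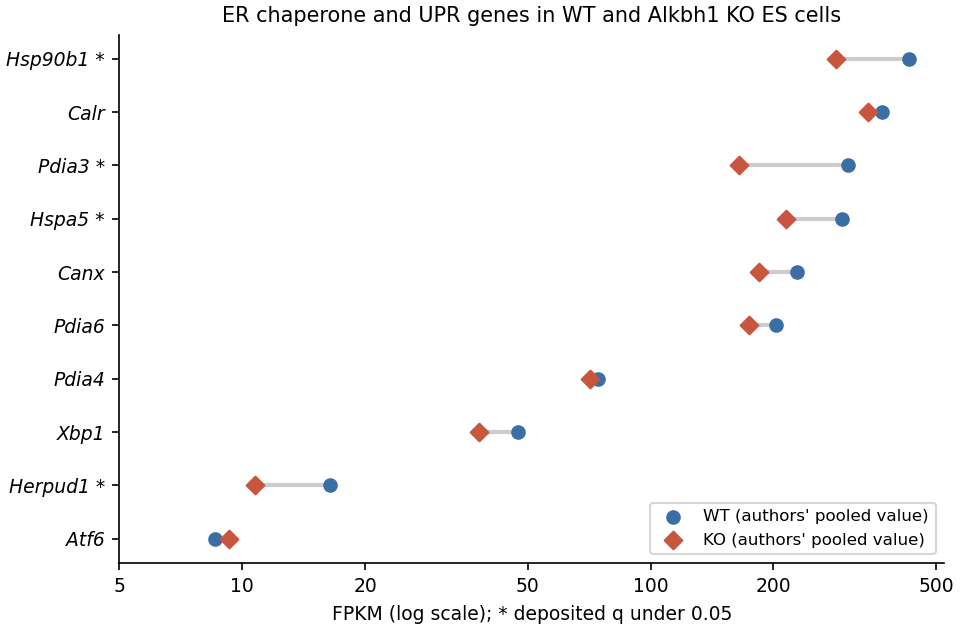
Levels of the 10 members in FPKM on a log axis, with circles for WT, diamonds for KO and an asterisk for a deposited q under 0.05, each point being 1 pooled value without error. As scaled by the authors, 9 of 10 diamonds lie left of their circles, with the widest gap for Pdia3, while with equal sums 9 would lie to the right and only Pdia3 to the left.

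Because several members are known targets of the unfolded protein response, their promoters were read for its elements. RefSeq windows on GRCm38.p6, from 250 bases before to 50 bases after each start, were at hand for 9 members. The ER stress response element (ERSE), which ATF6 binds together with NF-Y, was searched on both strands as CCAAT and CCACG separated by 9 bases. It stood in 5 of the 9 windows (Hspa5, Hsp90b1, Calr, Canx and Pdia6), against 39 of all 32851 windows (0.119%). The second form, ERSE-II, was searched as ATTGG and CCACG separated by 1 base, and stood in the window of Herpud1 and in 12 of all windows (0.0365%). The XBP1 element TGACGTGG stood in none of the 9 and in 0.676% of all windows. The shorter motif CCACG alone, which lies inside both ER stress elements, was in 7 of the 9 and in 32.8% of all windows. A match is a description of these letters, not evidence of binding. The elements and several members were both taken as known parts of this response, so a higher share among the members is no separate result.

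The stretches below show these elements, 5′ to 3′ on the strand of the gene, in lower case with both ends of each element in capitals. A pair of capitals reading CGTGG and then ATTGG is the same element on the other strand. Hsp90b1 is shown since it alone has 2 exact matches. Pdia3, which had the lowest fold change of the members, is shown with the 100 bases before its start, where no exact match was found. Near matches were not searched for. The stretches hold some, such as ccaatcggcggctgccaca in Pdia3 and ccaatcagcggcctccaac in Hspa5.
Hspa5: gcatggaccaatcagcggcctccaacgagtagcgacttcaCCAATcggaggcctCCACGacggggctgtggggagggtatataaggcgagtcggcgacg
Hsp90b1: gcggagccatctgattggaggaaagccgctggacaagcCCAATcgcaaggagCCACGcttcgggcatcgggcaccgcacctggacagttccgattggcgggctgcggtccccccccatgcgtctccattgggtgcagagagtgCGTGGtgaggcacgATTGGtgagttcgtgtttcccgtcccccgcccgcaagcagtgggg
Calr: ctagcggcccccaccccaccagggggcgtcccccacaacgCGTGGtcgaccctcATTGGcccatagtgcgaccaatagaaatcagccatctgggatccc
Canx: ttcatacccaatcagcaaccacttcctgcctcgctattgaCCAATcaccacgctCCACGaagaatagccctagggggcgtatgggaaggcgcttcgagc
Pdia6: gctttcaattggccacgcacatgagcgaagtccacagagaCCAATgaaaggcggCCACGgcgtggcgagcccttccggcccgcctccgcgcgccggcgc
Herpud1: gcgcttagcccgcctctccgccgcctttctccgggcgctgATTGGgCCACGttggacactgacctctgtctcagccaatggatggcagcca
Pdia3: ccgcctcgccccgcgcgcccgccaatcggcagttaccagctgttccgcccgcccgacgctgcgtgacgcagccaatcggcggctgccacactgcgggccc

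On GRCm38.p6 these stretches lie at chr2:34771985-34772083 on the plus strand (Hspa5), chr10:86705493-86705694 on the minus strand (Hsp90b1), chr8:84847035-84847133 on the minus strand (Calr) and chr11:50325760-50325858 on the minus strand (Canx). Those of the other three lie at chr12:17266451-17266549 on the plus strand (Pdia6), chr8:94386337-94386427 on the plus strand (Herpud1) and chr2:121413802-121413901 on the plus strand (Pdia3). The element of Hspa5 begins 65 bases before the start and that of Herpud1 begins 52 bases before it. In Hsp90b1 the elements begin 212 and 107 bases before the start, in Calr 162, in Canx 145 and in Pdia6 98 bases before it.

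**Figure D2:**
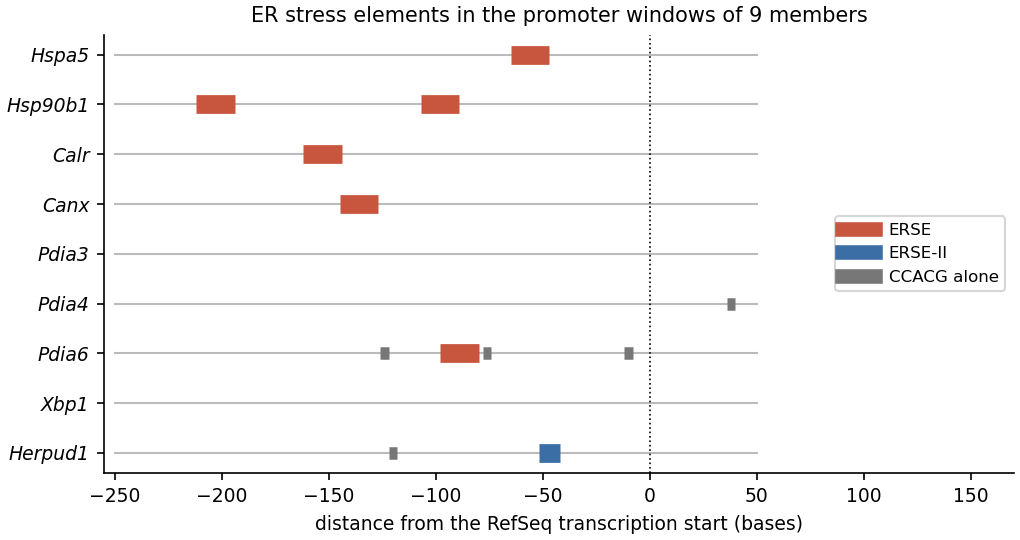
Positions of ERSE (red), ERSE-II (blue) and CCACG outside them (grey) in the promoter windows of 9 members, as distance in bases from the RefSeq start (dotted line at 0). An exact ERSE stands in 5 windows, with 2 copies in that of Hsp90b1, and no exact match to either ER stress element was found in Pdia3, Pdia4 or Xbp1.

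The general chaperones of the ER lumen fell in KO as scaled by the authors, and lay above 0 with equal sums. Hspa5 encodes BiP, the HSP70 of the ER, which also holds the sensors inactive. In the authors' deposited table Hspa5 (mm9, chromosome 2, 34627609 to 34632049) was at 295 FPKM (WT) and 214 FPKM (KO), which is 72.7% of WT. Its log2 fold change there was -0.46, with a test statistic of -1.83 and q = 0.00791. Hsp90b1 encodes GRP94, the HSP90 of the ER, which folds integrins and Toll-like receptors among others. By the authors' deposited table, Hsp90b1 (chromosome 10, 86153585 to 86168189) fell from 431 FPKM to 285, or 66.1% of WT, with a log2 fold change of -0.60, a test statistic of -2.32 and q = 0.000881. Hsp90b1 was the most abundant member in WT and the second in KO. With equal sums of FPKM both would lie slightly above 0, Hspa5 at 0.19 and Hsp90b1 at 0.06.

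The lectin chaperones, which hold glycoproteins until they are folded, were not called. Calr encodes calreticulin, the soluble form, and Canx encodes calnexin, its membrane-bound relative. In the authors' deposited table Calr (chromosome 8, 87365986 to 87370830) was at 369 FPKM (WT) and 340 FPKM (KO), a log2 fold change of -0.12 with q = 0.537. Canx (chromosome 11, 50107458 to 50139175) was at 229 FPKM (WT) and 184 FPKM (KO) in the authors' deposited table, a log2 fold change of -0.31 with q = 0.0807. These q values do not show that the levels were the same. By the authors' deposited table, their relative Clgn, which encodes calmegin, a chaperone best known from the testis, stood at 12.1 and 15.4 FPKM (q = 0.0784).

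Of the disulfide isomerases Pdia3 was called and Pdia4 and Pdia6 were not. Pdia3 encodes ERp57, which works with calnexin and calreticulin on glycoproteins. In the authors' deposited table Pdia3 (chromosome 2, 121239637 to 121264422) fell from 304 FPKM to 165, a 1.84-fold difference, with a log2 fold change of -0.88, a test statistic of -3.48 and q = 0.000206, the smallest q in the table. Pdia4 encodes ERp72 and Pdia6 encodes P5, which both bind BiP complexes. Pdia4 (chromosome 6, 47746139 to 47763511) was at 74.5 FPKM (WT) and 71.1 FPKM (KO) in the authors' deposited table (log2 fold change -0.07, q = 0.736). Pdia6 (chromosome 12, 17273400 to 17331536) stood at 202 and 175 FPKM in the authors' deposited table (log2 fold change -0.21, q = 0.240). The table gives both regions jointly with another gene, Mir704 for Pdia4 and Atp6v1c2 for Pdia6, so these 2 values are less certain. For Mir704 the authors' deposited table lists 53.6 FPKM (WT) and 35.2 FPKM (KO), close to the level of Pdia4 but with a log2 fold change of -0.61 (q = 0.816). For Atp6v1c2 it lists 0.579 FPKM (WT) and 1.88 FPKM (KO), far below Pdia6. The general isomerase gene P4hb was at 315 FPKM (WT) and 248 FPKM (KO) in the authors' deposited table (log2 fold change -0.34, q = 0.0528).

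Among the regulators and degradation factors, Herpud1 was called. Herpud1 encodes HERP, a membrane protein of the ER degradation complex and a sensitive target of the unfolded protein response. By the authors' deposited table, Herpud1 (chromosome 8, 96910399 to 96919258) fell from 16.4 FPKM to 10.8, with a log2 fold change of -0.61, a test statistic of -2.15 and q = 0.00177. With equal sums it would stand at 0.04. Xbp1 (chromosome 11, 5420643 to 5425996) was at 47.3 FPKM (WT) and 37.9 FPKM (KO) in the authors' deposited table (log2 fold change -0.32, q = 0.0736). Atf6 (chromosome 1, 172634587 to 172797902) was the least abundant member, at 8.58 and 9.30 FPKM in the authors' deposited table, and alone lay above 0 (log2 fold change 0.12, q = 0.560).

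Ratios between members do not depend on a single scaling factor. The log2 change of a ratio is the difference between the log2 fold changes of its genes. Pdia3 had the lowest fold change of the members, so its larger moves below follow from that value and are no separate result. In FPKM, which is per transcript length, Pdia3 ranked 3 of the 10 in WT and 6 in KO. From the authors' deposited table, the Pdia3 level was 0.824 of the Calr level in WT and 0.485 in KO. Against Pdia6 the ratio went from 1.503 to 0.945, and against P4hb, which is not a member, from 0.967 to 0.665. The ratio of Calr to Canx was 1.62 in WT and 1.85 in KO, and that of Hsp90b1 to Hspa5 was 1.46 and 1.33. These ratios have no replicate error here, and their differences were not tested.

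The call rule decides how many members are counted. At a deposited q under 0.01 the same 4 members were lower (22.6% of tested genes), and at q under 0.1 there were 6, with Canx and Xbp1 added (31.8% of tested genes). With at least a 1.5-fold difference 3 members were lower, without Hspa5 (19.6% of tested genes), and with at least a 2-fold difference none (5.36%). For each of the 10 members the deposited p-value is smaller than a normal reading of the deposited test statistic gives. For Hspa5 the deposited p was 0.00305, while its statistic read as a two-sided normal score gives 0.0674. On that reading, adjusted by Benjamini-Hochberg over all tested genes, Pdia3 alone of the members was called, where 1977 of 14095 tested genes (14%) were lower. In either direction 3510 tested genes were called on that reading. The adjusted value of Pdia3 was 0.00474, and those of Hsp90b1 and Herpud1 were 0.0717 and 0.0985.

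Fold changes in this table fall with expression level, so each member was also set beside the 200 tested genes nearest to it in mean FPKM. Against these, 8 of the 10 members lay above the local median and 2 below it. Genes at the level of Hspa5 had a median log2 fold change of -0.72, and 151 of the 200 lay below Hspa5. For Hsp90b1 142 of 200 lay below it, for Calr 184, for Canx 174, for Pdia4 174 and for Pdia6 185. Xbp1 and Atf6 were near the middle, with 109 and 126 genes below. Below their local medians were Pdia3, with 74 genes below it, and Herpud1, with 33. Herpud1 stood 0.48 below the local median and Pdia3 0.16 below. The difference of Calr from its local median was 0.66, of Pdia6 0.53, of Pdia4 0.48 and of Canx 0.41. These ranks describe the pooled values, and they carry no test.

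**Figure D3:**
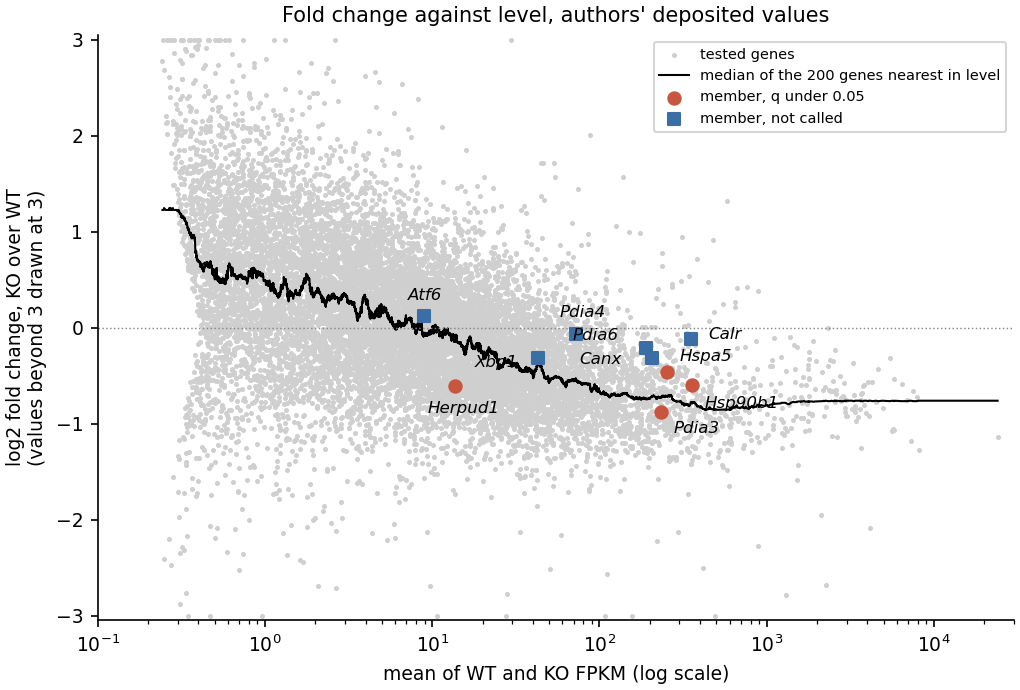
Log2 fold change of KO over WT as deposited against mean FPKM (log axis) for tested genes (grey), with the median of the 200 genes nearest in level (black line) and the 10 members (red for q under 0.05, blue for not called). On the deposited scale 9 members lie below 0, whereas 8 lie above the black line, with Pdia3 and Herpud1 under it.

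Classes formed by level and transcript length gave a similar order. Against genes of the same decile by level and quintile by length, 7 members lay above the class median and Pdia3, Herpud1 and Atf6 below it, at -0.20, -0.25 and -0.12. Pdia3 was the only member on the lower side under each of the 4 scalings tried, which were the deposited one, equal sums, like level, and like level and length. Herpud1 was on the lower side under all but equal sums, where it stood at 0.04, a value without an error estimate. Against genes of like level, and of like level and length, Herpud1 lay further below than Pdia3.

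**Figure D4:**
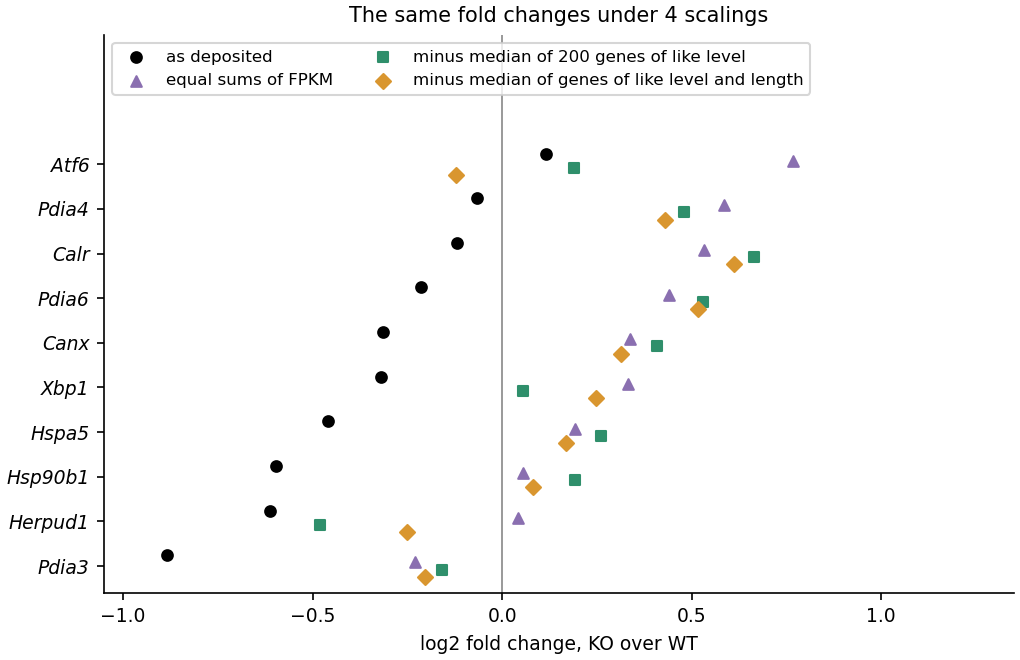
The log2 fold change of each member as deposited (black circles), with equal sums of FPKM (triangles), minus the median of the 200 genes of like level (squares), and minus the median of genes of like level and length (diamonds). All 4 marks lie below 0 for Pdia3 alone, from -0.88 to -0.16, and for Herpud1 all but that for equal sums, at 0.04. From below 0 as deposited, 7 members move to above 0 under each other scaling.

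Genes of the pathway were taken in lists by role, whose counts stand beside the 28.4% of all tested genes called lower and 22.4% called higher. By the unadjusted p of the authors' test 31.2% of tested genes were lower. On the normal reading 14% were lower, and 3510 of 14095 were called in either direction. Between 5.36% and 19.6% of all tested genes were called lower and would stay below 0 with equal sums. The lists hold all members but Hsp90b1, so their counts and medians are not separate from those of the members. Hspa5 is in the HSP70 system, Pdia3, Pdia4 and Pdia6 in the isomerases, and Calr and Canx in the calnexin cycle. Xbp1 and Atf6 are in the sensors and transducers, and Herpud1 is in degradation. As scaled by the authors, the median log2 fold change was -0.25 for the ER HSP70 system, -0.33 for isomerases and oxidases, -0.08 for the calnexin cycle, 0.40 for sensors, -0.33 for the PERK branch, -0.26 for degradation, -0.45 for the oligosaccharyltransferase and -0.56 for the translocon, against -0.06 over all tested genes. With equal sums each of these medians lay above 0, as did the median of all tested genes, which rises by the same 0.65. Only the median of the sensors lay above that of all tested genes on either scale. Of 15 tested genes of the ER HSP70 system, 7 fell and none rose as scaled by the authors, while with equal sums 2 of the 7 would lie below 0 and 5 above. At an unadjusted p under 0.05 by the authors' test, 7 were lower and none higher, and on the normal reading 2 were lower and none higher. In the authors' deposited table Manf, which encodes a secreted stress-induced factor, fell from 57.0 FPKM to 33.3 (log2 fold change -0.78, and -0.12 with equal sums). Dnajb11, a J-domain cochaperone of BiP, fell from 55.4 FPKM to 34.0 in the authors' deposited table (-0.70, and -0.05 with equal sums), and shares its region with Ahsg.

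Disulfide oxidases and isomerases went in different directions. Of 19 tested genes of this list, 6 fell and 5 rose as scaled by the authors, and with equal sums 2 of the 11 would lie below 0 and 9 above. On the normal reading 2 were lower and 3 higher, and by the unadjusted p 10 were lower and 5 higher. As deposited, 14 of the 19 fold changes lay below 0. The 5 that rose were Ero1l, Ero1lb, Qsox1, Qsox2 and Tmx4. Of these, Ero1lb, Qsox2 and Tmx4 were named after their values were seen. The Ero1 and Qsox genes encode oxidases that feed disulfide bonds into the secretory pathway. Ero1l, which hypoxia is known to induce, rose from 22.1 FPKM to 50.6 in the authors' deposited table (2.29-fold, q = 0.000206), and 199 of the 200 genes nearest in level lay below it. Qsox1 rose from 2.50 FPKM to 5.68 in the authors' deposited table (q = 0.000206), with 189 of 200 below it. Prdx4, which encodes an ER peroxiredoxin that uses the peroxide made by ERO1, fell from 139.8 FPKM to 61.3 in the authors' deposited table (log2 fold change -1.19, and -0.54 with equal sums). Erp44, which retains ERO1 proteins in the ER, fell from 18.6 FPKM to 12.2 in the authors' deposited table (-0.60, and 0.05 with equal sums).

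In the calnexin cycle most genes were not called. Of 10 tested, 1 fell, 1 rose and 8 were not called as scaled by the authors, and with equal sums both called genes would lie above 0. By the unadjusted p 2 were lower and 2 higher, and on the normal reading none was called. Uggt1, the folding sensor that sends glycoproteins back to calnexin, rose from 19.4 FPKM to 27.8 in the authors' deposited table (q = 0.00191), in a region shared with a microRNA gene. Mogs, the first glucosidase of the cycle, fell from 9.56 FPKM to 6.56 in the authors' deposited table (log2 fold change -0.54, and 0.11 with equal sums).

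Sensors and transducers had more higher than lower calls. Of 13 tested, 7 rose and 1 fell as scaled by the authors, and with equal sums all 8 would lie above 0. On the normal reading 3 were higher and none lower, and by the unadjusted p 8 were higher and 2 lower. The share of all tested genes that were higher by the unadjusted p was not counted. Ern1, which encodes IRE1, rose 3.40-fold from 0.964 FPKM to 3.28 in the authors' deposited table (log2 fold change 1.77, q = 0.000206), and 196 of the 200 genes nearest in level lay below it. Eif2ak3, which encodes PERK, rose from 5.68 FPKM to 7.49 in the authors' deposited table (q = 0.0392), with 149 of 200 below it. Creb3l2, a relative of ATF6, rose from 0.836 FPKM to 1.83 in the authors' deposited table (q = 0.000206). The one that fell was Mbtps2, which encodes a protease that cuts ATF6, from 9.32 FPKM to 6.44 in the authors' deposited table (-0.53, and 0.12 with equal sums), in a region shared with Yy2. The list's median mean level was 6.41 FPKM, lower than the 197 FPKM of the 10 members, and its median difference from genes of like level was 0.25.

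Of 11 tested targets of the PERK branch, 5 fell and 1 rose as scaled by the authors, and with equal sums 3 of the 6 would lie below 0 and 3 above. On the normal reading 2 were lower and none higher, and by the unadjusted p 5 were lower and 1 higher. Atf4, the transcription factor of this branch, fell from 363 FPKM to 183 in the authors' deposited table (log2 fold change -0.98, and -0.33 with equal sums). Cebpb fell from 1.76 FPKM to 0.931 in the authors' deposited table (q = 0.00361), and Sesn2, a stress-induced regulator of TORC1, rose from 8.58 FPKM to 13.5 (q = 0.000390). Ddit3, which encodes the pro-apoptotic factor CHOP, was at 10.2 FPKM (WT) and 17.8 FPKM (KO) in the authors' deposited table, but was not called (q = 0.535) and shares its region with Mars.

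Of 28 tested genes of ER-associated degradation, 12 fell and 4 rose as scaled by the authors, and with equal sums 4 of the 16 would lie below 0 and 12 above. On the normal reading 2 were lower and none higher, and by the unadjusted p 13 were lower and 4 higher. Ube2j1, a ubiquitin-conjugating enzyme of the ER membrane, fell from 5.65 FPKM to 2.67 in the authors' deposited table (-1.08, and -0.43 with equal sums), and 4 of the 200 genes nearest in level lay below it. Vimp, which encodes selenoprotein S, fell from 37.6 FPKM to 18.5 in the authors' deposited table (-1.03, and -0.37 with equal sums). The lectin gene Os9 (2.97 to 4.12 FPKM) and the derlin gene Derl3 (1.43 to 2.26 FPKM) rose in the authors' deposited table. The others that rose, named after their values were seen, were Edem3 and Sel1l.

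The machinery that brings proteins into the ER and glycosylates them had more lower than higher calls as scaled by the authors, in lists whose medians lay above 0 with equal sums. Of 18 tested genes of the translocon and signal peptide processing, 13 fell and none rose, and with equal sums 7 of the 13 would lie below 0 and 6 above. By the unadjusted p 14 were lower and none higher, and on the normal reading 7 were lower and none higher. Sec61g, a subunit of the channel, fell from 721 FPKM to 357, and Ssr2, of the translocon-associated complex, from 363 FPKM to 182, in the authors' deposited table (-0.36 and -0.34 with equal sums). Of 12 tested genes of the oligosaccharyltransferase, which attaches N-glycans, 10 fell and none rose, and with equal sums 2 of the 10 would lie below 0 and 8 above. By the unadjusted p 10 were lower and none higher, and on the normal reading 2 were lower and none higher. Its subunit gene Ostc fell from 243 FPKM to 115 in the authors' deposited table (-1.08, and -0.42 with equal sums), and Krtcap2 from 153 FPKM to 95.6 (-0.68, and -0.02 with equal sums).

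**Figure D5:**
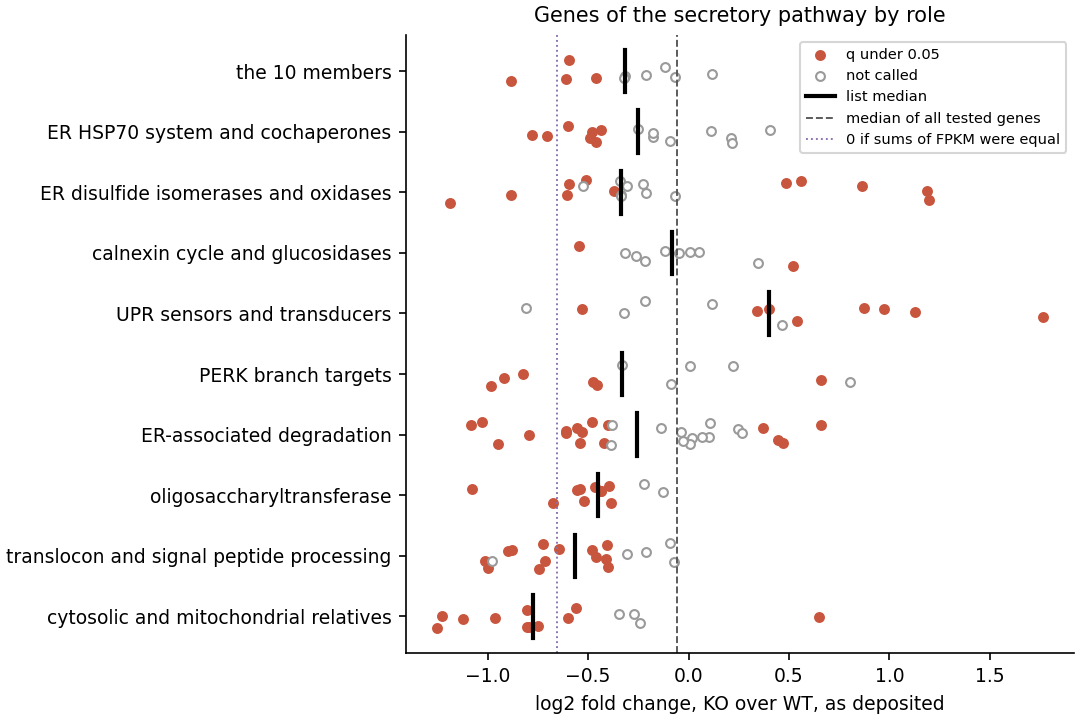
Log2 fold change of KO over WT as deposited for tested genes of each list (filled red for q under 0.05, open grey for not called, black bar for the list median), with the median of all tested genes (dashed line) and the point that equal sums of FPKM would move to 0 (dotted line). Sensors and transducers have a median of 0.40, and the 10 members of -0.32. With equal sums the members' median would be 0.34, still below that of all tested genes, which would rise by the same amount.

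Chaperones of other compartments were set beside the members. Their list holds HSP70 and HSP90 relatives, and also Hspd1, Hspe1, Dnaja1 and Dnajb1, whose families have no gene among the members. Of 14 tested cytosolic and mitochondrial chaperone genes, 10 fell and 1 rose (Hspa2) as scaled by the authors, with a median of -0.77, and with equal sums 8 of the 11 would lie below 0 and 3 above. On the normal reading 6 were lower and none higher, and by the unadjusted p 10 were lower and 1 higher. By the authors' deposited table, Hspa8, the cytosolic HSP70, fell from 4867 FPKM to 2785 (log2 fold change -0.81), and Hspa9, the mitochondrial one, from 543 FPKM to 313 (-0.80), next to -0.46 for Hspa5. The level of Hspa5 was 0.0606 of that of Hspa8 in WT and 0.0769 in KO. Of the HSP90 family, Hsp90aa1 fell from 2958 FPKM to 2007 in the authors' deposited table (-0.56, q = 0.0129, and 0.09 with equal sums), next to -0.60 for Hsp90b1. Hsp90ab1 (-0.35, q = 0.122) and the mitochondrial Trap1 (-0.27, q = 0.127) were not called in the authors' deposited table. The largest falls named here were those of Dnaja1, a cytosolic J-domain cochaperone, from 154.7 FPKM to 64.8, and Hspe1, the mitochondrial cochaperonin, from 1996 FPKM to 852, in the authors' deposited table. Dnaja1 shares its region with Gm6297, Mir207 and Smu1, so its value is less certain. Fold changes fall with level here, and Hspa8 and the HSP90 genes named lie far above Hspa5 in level. Against genes of like level the median difference of this list was 0.0084, with 7 genes above and 7 below. That of the 10 members was 0.23. Whether ER and other chaperones differ in their fold changes was not tested.

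The promoter search was then read for all genes, members included. An ERSE was present in windows of 37 symbols, of which 20 were tested, including the 5 members above. Of these 20, 7 were called lower and 7 higher as scaled by the authors, with a median log2 fold change of -0.17, where 28.4% of all tested genes were lower and 22.4% higher. With equal sums 1 of the 14 called genes would lie below 0 and 13 above, with a median of 0.48 over the 20. Equal sums raise the median of all tested genes, -0.06 as deposited, by the same amount. The median difference of the 20 from genes of like level was 0.23. The 7 lower ones include Xlr3a, Xlr3b and Xlr3c, near-identical copies whose reads are uncertain. Of 12 symbols with an ERSE-II, 9 were tested, of which 7 were called lower and 2 were not called as scaled by the authors, with a median of -0.62. With equal sums 3 of the 7 would lie below 0 and 4 above, with a median of 0.031 over the 9. The median difference of these 9 from genes of like level was -0.32. Besides Herpud1, the 7 called lower were Dnajb11 and Krtcap2, and Rbm39, Lrif1, Rcl1 and Lgalsl, which are in none of the lists here. These last were named after their values were seen. Of the 7, Krtcap2 alone lay above the median of genes of like level, by 0.026. This search was added after the values of the members were seen.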

How the data were processed

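Total RNA was made into strand-specific messenger RNA libraries, per the labels' protocols. Reads were aligned with TopHat2 to mm9, per the submitters' processing notes. Not given in the sources used here are the annotation, the strand setting and how libraries were scaled. One deposited table was used, with columns named as Cuffdiff names them, per the file headers. It holds the authors' pooled FPKM for each genotype, the authors' log2 fold change of KO over WT, and the authors' test statistic (a score), p-value and q-value. Depth is unknown, and the labels do not say that replicates were separate cultures, so p-values may reflect technical spread.

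No expression test was run anew. Genes were called at a deposited q under 0.05. The smallest deposited p of 5e-05 is shared by 3418 tested genes, which it cannot rank. Medians leave out 56 tested genes without a finite fold change. Equal sums add the log2 ratio of summed FPKM, keeping the calls. Transcript lengths came from the longest GENCODE M21 transcript by symbol or synonym (99.3% of tested genes). Promoter windows are from RefSeq on GRCm38.p6, another build than that of the table, and were matched by symbol, as 9 of 10 members were. Alternatives were other q and fold thresholds, adjustment over genes with a mean of at least 1 FPKM, pseudocounts of 0.1 and 1, recentring, and leaving out shared regions. The level and length classes and the normal reading of the statistic were added after the data were seen.

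Members and lists were chosen with earlier results of these data known. Genes named beyond the members were Alkbh1, up to 2 called genes with the highest and 2 with the lowest fold change per list at a mean of at least 1 FPKM, and set relatives, sensors and targets. The local medians, the adjustment and the motif search were tested on simulated data. Python 3.11.15, NumPy 2.4.6, pandas 2.3.3, SciPy 1.17.1 and Matplotlib 3.10.9 were used.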

Additional observations from a re-analysis of the deposited data

How the results depend on the processing

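Directions of the members changed with the scaling, and not with the filter or the pseudocounts. The 4 lower calls and the member median kept their direction at q under 0.01, with the low-level filter, with pseudocounts, when recentred on all tested genes and without rows that share a region. With at least a 2-fold difference 0 members were lower, and with the normal reading of the statistic 1. With equal sums 1 called member was lower and 3 higher, and when recentred on genes of like level, or of like level and length, 2 were lower and 2 higher. The member median was 0.34, 0.23 and 0.21 under these 3 scalings. With equal sums the median of all tested genes rises with it and stays above it. The 65 lower and 19 higher calls over the 9 related lists include the members Hspa5, Pdia3 and Herpud1. These 65 and 19 became 35 and 10 with at least a 1.5-fold difference and 8 and 4 with at least a 2-fold difference. They became 23 and 6 with the normal reading, and 28 and 56 with equal sums. The higher calls became 11 at q under 0.01, and 36 under either recentring on like genes. The changes of direction follow from adding a constant or subtracting a local median, and the smaller counts at stricter thresholds from the thresholds themselves. The cause of the lower counts on the normal reading was not tested.

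Members that turned with equal sums stood at 0.19 (Hspa5), 0.056 (Hsp90b1), 0.53 (Calr), 0.34 (Canx), 0.59 (Pdia4), 0.44 (Pdia6), 0.33 (Xbp1), 0.042 (Herpud1). Those that turned against genes of like level stood at 0.26 (Hspa5), 0.19 (Hsp90b1), 0.66 (Calr), 0.41 (Canx), 0.48 (Pdia4), 0.53 (Pdia6), 0.054 (Xbp1). Against level and length classes they stood at 0.17 (Hspa5), 0.082 (Hsp90b1), 0.61 (Calr), 0.31 (Canx), 0.43 (Pdia4), 0.52 (Pdia6), 0.25 (Xbp1), -0.12 (Atf6). List medians turned with equal sums to 0.40 (HSP70 system), 0.32 (isomerases and oxidases), 0.57 (calnexin cycle), 0.32 (PERK branch), 0.39 (degradation), 0.20 (oligosaccharyltransferase), 0.090 (translocon). The median of all tested genes rises by the same amount with equal sums, and each of these lies below it. Against genes of like level they turned to 0.047 (HSP70 system), 0.21 (isomerases and oxidases), 0.33 (calnexin cycle), 0.12 (oligosaccharyltransferase), 0.0084 (relatives in other compartments), and against level and length classes to 0.071 (HSP70 system), 0.075 (isomerases and oxidases), 0.31 (calnexin cycle), 0.16 (oligosaccharyltransferase).

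No paired analysis was possible because the table gives 1 pooled value for each genotype, and no fit without single replicates was run for the same reason.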

Other observations

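The ratio of the deposited log2 fold change to the deposited test statistic, which is the log2 difference counted as 1 unit of the statistic, lay between 0.250 and 0.285 for all 10 members. It was highest for Herpud1, and the other members lay between 0.250 and 0.259 although their levels run from 8.58 FPKM (Atf6, WT) to 431 FPKM (Hsp90b1, WT) in the authors' deposited table.

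Ern1 and Hspa5, a sensor and the chaperone that binds it, moved apart in the authors' deposited table. The level of Ern1 was 0.00327 of the level of Hspa5 in WT and 0.0153 in KO, a log2 difference of 2.23 between these ratios, which no single scaling factor changes. Against genes of like level both lay above the local median, Ern1 by 1.41 and Hspa5 by 0.26, so they lie closer together on that scale. The difference was not tested.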
